A study of Mus musculus with 6 samples.

Results

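The glucocorticoid receptor, the related mineralocorticoid receptor, 1 enzyme that supplies their hormone and 7 genes that the hormone is known to switch on were followed in RNA-seq of mouse aorta. These 10 genes, Nr3c1, Nr3c2, Hsd11b1, Fkbp5, Tsc22d3, Zbtb16, Klf9, Sgk1, Dusp1 and Errfi1, were found by their symbols among 55335 genes counted. They were picked because Fkbp5 and Tsc22d3 were higher at 6 months, so the values of this pair are given as a description, without a test. The libraries came from wild-type C57BL/6 mice (c57b6l in the labels), 3 young mice of 6 weeks and 3 aged mice of 6 months, with 1 library per mouse. The study describes the mice as male and the adipose tissue around the vessel as removed. No transgene, drug or diet separates the groups, and age is the only difference that the labels give. Mice are still growing at 6 weeks and are adult at 6 months. The hour of collection is not given in the sources used here.

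Glucocorticoids, corticosterone in mice, are released by the adrenal cortex in a daily rhythm and under stress. The receptor waits in the cytoplasm in a complex with Hsp90 and its partner proteins, moves to the nucleus once it holds hormone, and binds DNA at glucocorticoid response elements. There it switches on genes that dampen inflammation and that shape metabolism and the receptor's own sensitivity, and it holds back many cytokine and adhesion genes. In vessels the hormone acts on smooth muscle, endothelium and the fibroblasts of the outer wall, and the mineralocorticoid receptor is also present there.

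Depth and tissue were read first. The counts summed to between 31049632 and 45832185 per library. CPM, which sets each count against its library's TMM-scaled total, was used to compare libraries, while FPKM, which also divides by gene length, was used to compare genes. The 7 smooth muscle markers were all detected, at a sum of 32254 to 40198 CPM in young and 27985 to 33335 CPM in aged libraries. All 7 had log2 fold changes below 0, with 4 of 7 at an unadjusted p below 0.05 (4.82% of all genes tested were lower). At that level 4 of 6 fibroblast and 6 of 6 macrophage markers were higher (5.56% of all genes tested). The part of these cell types in the results was not tested. Of 4 markers of adrenal cortex, Cyp11b1, Cyp11b2 and Cyp21a1 were at 0 counts in all 6 libraries, while Star was at 3.76 to 7.59 CPM. Of 5 lymphocyte markers, 4 stayed below 1 CPM. Mitochondrial genes took 14.9 to 21.2% of the counts in young and 23.1 to 30.4% in aged libraries. In young replicate 1, Xist was at 306 CPM and at 0.636 CPM or less elsewhere. The Y-linked Ddx3y and Eif2s3y were at 1.09 and 0.846 CPM there, against 44.8 to 65.6 and 56.4 to 85.6 CPM elsewhere. Kdm5d and Uty, also Y-linked, were at 0.144 and 0.103 CPM there, against 18.0 to 25.7 and 6.01 to 12.6 CPM. This goes against the study's description of the mice as male, and sex by these genes differed within the young group. The daily clock also stood apart in this library, with Dbp at 10.1 CPM against 125 to 436. In aged replicate 2, 4 brown adipocyte markers summed to 1867 CPM against 71.7 to 561 elsewhere. Values that these libraries move most are given with and without them.

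To ask how the 10 genes differ with age, counts of 16612 genes were fitted by edgeR's quasi-likelihood method, with p values adjusted by the Benjamini-Hochberg method. No gene of the whole table passed an adjusted p of 0.05, so 0% of genes were called, and none of the 8 genes other than Fkbp5 and Tsc22d3 was called either. At an unadjusted p below 0.05, 3 of these 8 genes were higher in aged aorta (Errfi1, Nr3c2 and Hsd11b1) and none was lower, where 5.56% of all genes tested were higher, 4.82% lower and 10.4% (1723 genes) at that level in either direction. Their median log2 fold change was 1.25, against 0.02 for all genes. With young replicate 1 and aged replicate 2 both left out, 3 of 8 were higher at the unadjusted level, where 9.41% of all genes were, and the median was 0.59. With library totals unscaled 3 of the 8 were higher and 1 lower at that level. Of all 16612 genes 2.6% were then higher, and 2933 were at that level in either direction. With limma 2 were higher and 1 lower. There 2.23% (FPKM + 1) or 2.84% (FPKM + 0.1) of all genes were higher, and 2941 or 2556 were at that level in either direction. DESeq2, which called 2.26% of the genes to which it gave an adjusted p, called Errfi1 and Nr3c2. Separation of the groups, with every aged library above every young one, was seen for Errfi1 and Nr3c2 among the 8 genes (7.74% of all genes), and Nr3c1 alone had every aged library below every young one (8.78%). Groups of either order did not overlap for 16.5% of all genes.

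**Figure D1:**
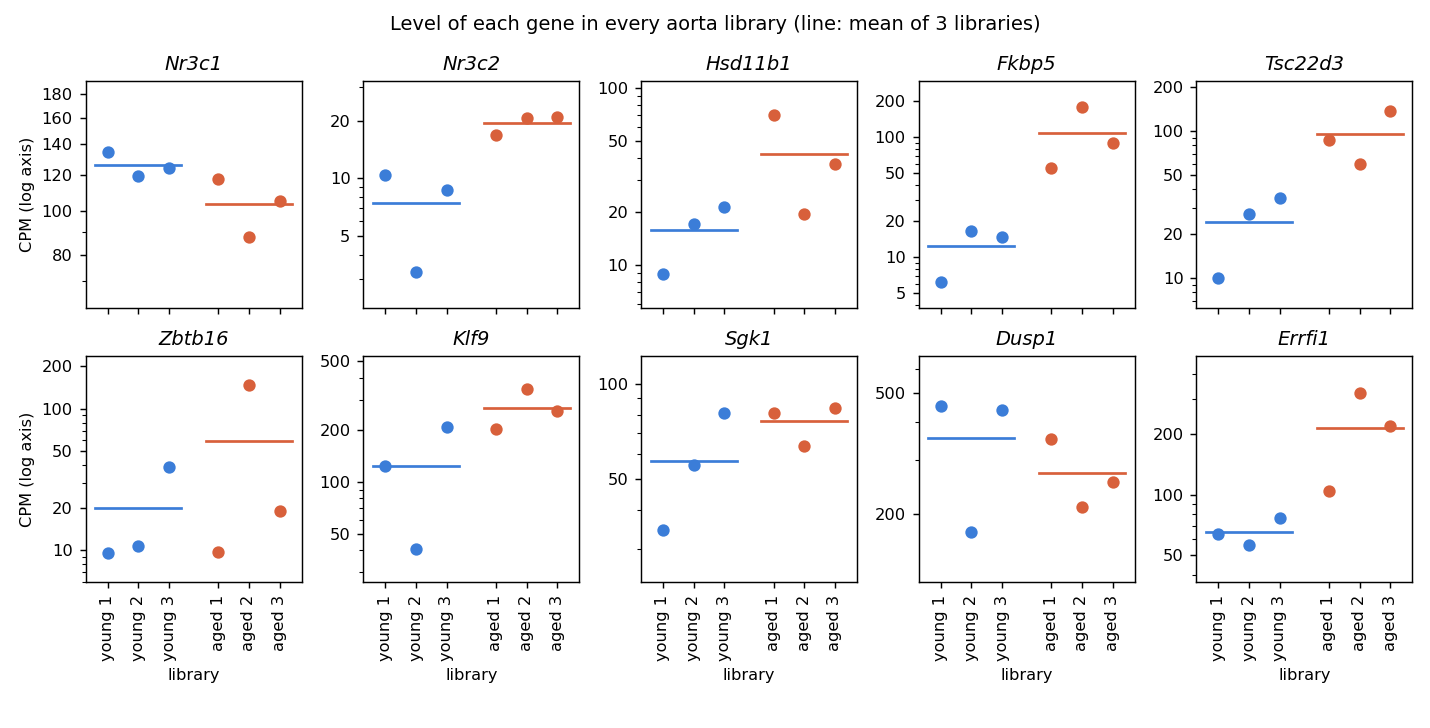
CPM of the 10 genes in each library on a log axis, with 1 panel per gene, blue points for the 3 young and orange points for the 3 aged libraries, and a line at each group's mean. The groups do not overlap for Nr3c1, Nr3c2, Fkbp5, Tsc22d3 and Errfi1, and overlap for the other 5 genes.

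The receptors differed in opposite directions, neither past the adjusted threshold. Nr3c1 encodes the glucocorticoid receptor. It was at 135, 119 and 124 CPM in young replicates 1, 2 and 3 and at 118, 87.6 and 105 CPM in aged replicates 1, 2 and 3. All aged libraries lay below all young ones, by a narrow margin of 118 against 119 CPM. The log2 fold change was -0.29 (standard error 0.16, adjusted p = 0.575 by edgeR), and the means were 126 ± 7.78 and 103 ± 15.1 CPM (SD, n = 3 each). With library totals unscaled the log2 fold change was -0.52, and without young replicate 1 and aged replicate 2 it was -0.13. It was the steadiest of the 10 genes, with 1.54-fold between its highest and lowest library.

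Nr3c2 encodes the mineralocorticoid receptor, which binds aldosterone and also corticosterone. Its gene spans bases 76899442 to 77245012 of chromosome 8 (GRCm38). It was at 10.5, 3.25 and 8.71 CPM in young replicates 1, 2 and 3 and at 16.8, 20.6 and 20.99 CPM in aged replicates 1, 2 and 3. Every aged library exceeded every young library, and the aged libraries were close together while young replicate 2 was low. The log2 fold change was 1.38 (standard error 0.41, unadjusted p = 0.0109, adjusted p = 0.382 by edgeR), and DESeq2 gave 1.39 with an adjusted p of 0.0469, where the other alternatives and left-out libraries gave 0.204 to 0.765. Leaving out 1 library at a time kept it between 1.03 and 1.71. It shares 247 exon bases with Gm10649 on the opposite strand, a gene with 35 counts over all libraries against 2850 for Nr3c2, and whether the counting used strand is not given.

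Per gene length, Nr3c1 exceeded Nr3c2 in all 6 libraries. FPKM of Nr3c1 was 16.0 ± 0.73 in young and 11.3 ± 1.67 in aged aorta, and that of Nr3c2 was 1.12 ± 0.56 and 2.51 ± 0.27 (SD, n = 3 each). The ratio of the receptors was 10.9, 31.2 and 12.0 in young replicates 1, 2 and 3 and 5.90, 3.57 and 4.21 in aged replicates 1, 2 and 3. The ratio was lower in each aged library than in each young library, with the highest value in young replicate 2. On the log2 scale it differed by -1.84 (exact two-sided permutation test, p = 0.1, the smallest p that 3 mice against 3 allow). It stayed between -2.12 and -1.36 with 1 library left out, and was -1.96 without young replicate 1 and aged replicate 2. Because whole vessel was sequenced, fewer cells that express a receptor and less RNA per cell cannot be told apart, here and in all that follows.

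**Figure D2:**
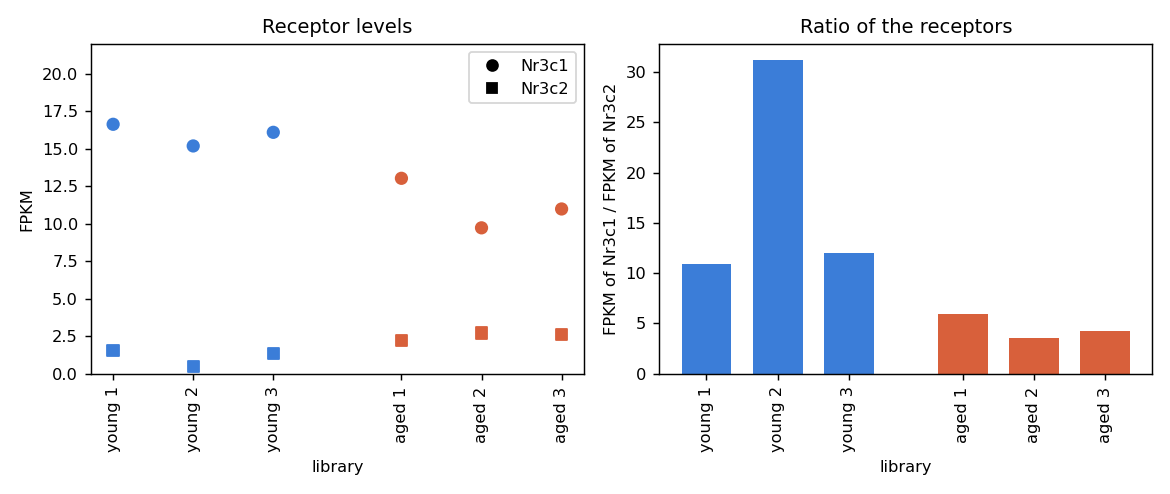
Left, FPKM of Nr3c1 (circles) and Nr3c2 (squares) in each library, with young in blue and aged in orange. Right, the ratio of their FPKM per library, between 10.9 and 31.2 in young and between 3.57 and 5.90 in aged aorta.

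Before hormone reaches a receptor it is processed in the tissue. Hsd11b1, on chromosome 1 from 193221634 to 193264075, encodes the enzyme that regenerates active glucocorticoid from its inert 11-keto form. It was at 8.88, 17.1 and 21.1 CPM in young replicates 1, 2 and 3 and at 70.4, 19.3 and 37.3 CPM in aged replicates 1, 2 and 3. Aged replicate 1 was the highest library, and aged replicate 2 lay below young replicate 3, so the groups overlapped. The log2 fold change was 1.43 (standard error 0.50, unadjusted p = 0.0236, adjusted p = 0.421 by edgeR), and 0.85 without aged replicate 1. The 6 fibroblast markers, all 6 of them detected, summed to 1858 to 2856 CPM in young and 1704 to 6578 CPM in aged libraries, and their sum was also highest in aged replicate 1 and lowest of all in aged replicate 2. The part of fibroblasts in the Hsd11b1 values was not tested.

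Of 11 genes for handling and making of steroids, 5 had enough counts to be tested. H6pd, which supplies the NADPH that Hsd11b1 needs, was at 58.4, 67.7 and 78.0 CPM in young replicates 1, 2 and 3 and at 105, 86.0 and 115 CPM in aged replicates 1, 2 and 3. All its aged libraries exceeded its young ones, at a log2 fold change of 0.59 with its standard error of 0.18 (adjusted p = 0.390 by edgeR). Abcb1b, an efflux pump that carries glucocorticoids among other compounds, also had non-overlapping groups, at 0.98 (standard error 0.33, adjusted p = 0.408 by edgeR). These were the 2 of 5 tested genes higher at an unadjusted p below 0.05 (5.56% of all genes). With library totals unscaled 1 was higher and 1 lower at that level (2.6% of all genes higher, 2933 of 16612 in either direction). With limma none was higher and 1 was lower (2941 or 2556 of 16612 genes in either direction). Hsd11b2, the enzyme that inactivates corticosterone and so shields the mineralocorticoid receptor in kidney, stayed at 0.425 CPM or less in every library and was not tested.

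Fkbp5 and Tsc22d3 are classical targets of the receptor, and their change chose the set. Fkbp5, on chromosome 17 from 28399094 to 28517527, encodes a partner of Hsp90 that lowers the receptor's affinity for hormone and thus forms a feedback loop. It was at 6.27, 16.4 and 14.7 CPM in young replicates 1, 2 and 3 and at 55.6, 177 and 88.9 CPM in aged replicates 1, 2 and 3. The lowest aged library was above the highest young one, and the aged libraries spread over 3.18-fold with aged replicate 2 on top. The group means, 12.5 ± 5.42 and 107 ± 62.7 CPM (SD, n = 3 each), differed 8.60-fold, and the fitted log2 fold change was 3.11 (standard error 0.53). Without aged replicate 2 it was 2.54, and without that library and young replicate 1 it was 2.22.

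Tsc22d3, on chromosome X from 140539528 to 140600659, encodes the leucine zipper protein GILZ, which binds inflammatory transcription factors. It was at 9.99, 27.3 and 34.8 CPM in young replicates 1, 2 and 3 and at 87.3, 59.9 and 137 CPM in aged replicates 1, 2 and 3. Here too the groups did not overlap, but the order of the aged libraries differed, with aged replicate 2 the lowest for Tsc22d3 and the highest for Fkbp5. The means were 24.0 ± 12.7 and 94.8 ± 39.2 CPM (SD, n = 3 each), a 3.94-fold difference, and the log2 fold change was 1.98 (standard error 0.49). It was 1.62 without young replicate 1, the lowest value with 1 library left out.

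Errfi1 had the smallest p of the 8 other genes. It lies on chromosome 4 from 150853919 to 150868892 and encodes MIG6, an inhibitor of the EGF receptor. It was at 63.9, 56.1 and 76.6 CPM in young replicates 1, 2 and 3 and at 105, 322 and 219.9 CPM in aged replicates 1, 2 and 3. The young libraries were close together, all aged ones exceeded them, and aged replicate 2 was the highest. The log2 fold change was 1.72 (standard error 0.39, unadjusted p = 0.00268, adjusted p = 0.372 by edgeR). DESeq2 gave 1.73 with an adjusted p of 0.00224, where the other alternatives and left-out libraries gave 0.160 to 0.765, and edgeR without aged replicate 2 gave 1.31.

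Klf9 and Zbtb16 encode zinc finger transcription factors. Klf9, on chromosome 19 from 23141226 to 23168134, was at 123, 40.6 and 207 CPM in young replicates 1, 2 and 3 and at 203, 346 and 257 CPM in aged replicates 1, 2 and 3. Its groups overlapped, because young replicate 3 lay just above aged replicate 1, and the log2 fold change was 1.12 (standard error 0.53, adjusted p = 0.517 by edgeR), with 0.71 without young replicate 2 and 1.73 without young replicate 3. Zbtb16, on chromosome 9 from 48654297 to 48836222, was at 9.54, 10.8 and 39.1 CPM in young replicates 1, 2 and 3 and at 9.72, 148 and 19.0 CPM in aged replicates 1, 2 and 3. Only aged replicate 2 lay above the young libraries, and the aged group spread over 15.2-fold. The log2 fold change, 1.58 (standard error 1.04, adjusted p = 0.622 by edgeR), turned to -0.46 without aged replicate 2, so its direction rests on that library.

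Sgk1 and Dusp1 are fast responders in many tissues. Sgk1, a kinase that promotes sodium uptake in epithelia, lies on chromosome 10 from 21882184 to 21999903. It was at 34.5, 55.2 and 81.2 CPM in young replicates 1, 2 and 3 and at 81.0, 63.9 and 84.0 CPM in aged replicates 1, 2 and 3. The ranges overlapped, and the log2 fold change was 0.42 (standard error 0.30, adjusted p = 0.646 by edgeR), with 0.17 without young replicate 1 and 0.77 without young replicate 3. Dusp1, a phosphatase that switches off MAP kinases, lies on chromosome 17 from 26505590 to 26562128. It was at 451, 175 and 438 CPM in young replicates 1, 2 and 3 and at 351, 211 and 255 CPM in aged replicates 1, 2 and 3. It was the only response gene with a lower aged mean, with a log2 value of -0.38 (standard error 0.38, adjusted p = 0.738 by edgeR), and all aged libraries fell inside the young range. It ran from -0.70 without young replicate 2 to -0.16 without young replicate 1, and was -0.0093 without young replicate 1 and aged replicate 2. Dusp1 shares 11 exon bases with Ergic1 on the opposite strand.

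**Figure D3:**
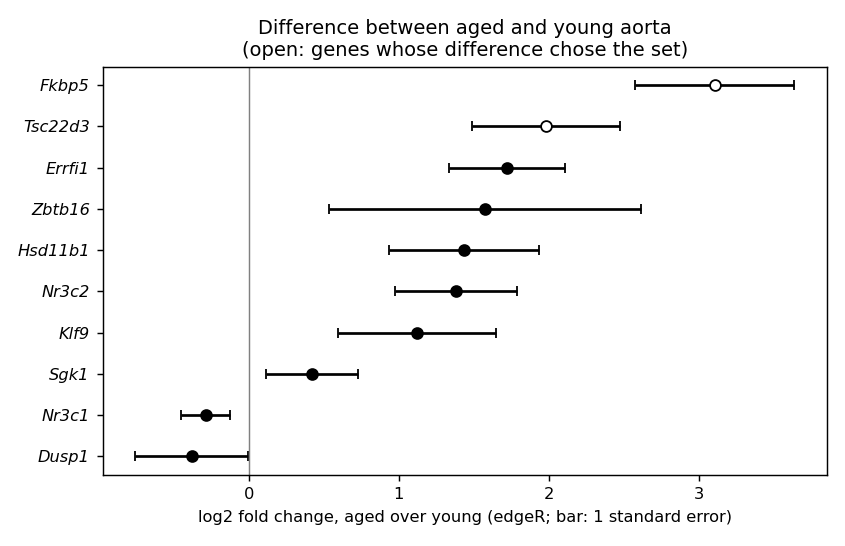
Log2 fold change of aged over young aorta for the 10 genes from edgeR, with bars of 1 standard error and open points for Fkbp5 and Tsc22d3, whose difference chose the set. Fkbp5 at 3.11 is farthest from 0, Zbtb16 has the widest bar, and Nr3c1 and Dusp1 lie below 0.

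Dusp1 is also known as an immediate early gene, a class that responds within minutes to stimuli and to handling of tissue. The 12 immediate early genes summed to 982 to 2092 CPM in young and 1100 to 1887 CPM in aged libraries, with young replicate 2 the lowest as for Dusp1. Of these 12, 9 had log2 fold changes below 0 (47.9% of all genes), with Fos at -0.34 and Nr4a1 at -0.69. At an unadjusted p below 0.05 by edgeR, 1 was higher (5.56% of all genes) and 2 were lower (4.82%). Without aged replicate 2, 5 of 12 were below 0 and Fos was at 0.10. Junb stood at 1.22 (standard error 0.30, adjusted p = 0.377 by edgeR) and Atf3 at -1.79 (standard error 0.50, adjusted p = 0.377 by edgeR), and DESeq2 called both. Their part in the Dusp1 values was not tested.

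The bases upstream of the start sites were read for letters that the receptor is known to bind, since the response genes are the ones grouped by this regulation. RefSeq promoters of GRCm38.p6 were found for 8 of the 10 genes, 16 promoters in all, and the 250 bases before each start were searched on both strands. The full palindrome, AGAACA and TGTTCT with any 3 bases between them, occurred in 3 of 32851 mouse promoters (0.00913%), and 1 of these belonged to Sgk1, from 189 to 175 bases before the start. The half-site AGAACA alone is common, in 16.1% of all promoters, and was present in 4 of these 16 promoters, those of Sgk1 and Tsc22d3. Some of the 8 genes have more than 1 promoter, so shares are compared per promoter. Sgk1 has the most, so these shares weigh it more than any other gene. Besides the Sgk1 promoter printed below, those at chr10:21881934-21882183 and chr10:21991973-21992222 hold a half-site. The E-box CACGTG, the letters read by the clock factors, was found in 3 of the 16 promoters (6.02% of all promoters). These belonged to Sgk1, Fkbp5 and Dusp1, and in Sgk1 the E-box overlapped a half-site. The cAMP response element TGACGTCA was found in 2 of the 16 promoters, of Errfi1 and Dusp1 (1.55% of all promoters). The 5 promoters below hold these letters, written from 5′ to 3′ on the strand of the gene, with matches in capitals. For the Errfi1 promoter, alone among these 5, the bases after the start matched no GENCODE transcript of the gene.
Sgk1 promoter, chr10:21993640-21993889, plus strand: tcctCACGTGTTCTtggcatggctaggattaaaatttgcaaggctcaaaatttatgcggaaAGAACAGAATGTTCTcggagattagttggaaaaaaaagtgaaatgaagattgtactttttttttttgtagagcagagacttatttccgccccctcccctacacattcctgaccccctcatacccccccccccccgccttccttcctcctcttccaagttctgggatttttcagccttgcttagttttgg
Tsc22d3 promoter, chrX:140600523-140600772, minus strand: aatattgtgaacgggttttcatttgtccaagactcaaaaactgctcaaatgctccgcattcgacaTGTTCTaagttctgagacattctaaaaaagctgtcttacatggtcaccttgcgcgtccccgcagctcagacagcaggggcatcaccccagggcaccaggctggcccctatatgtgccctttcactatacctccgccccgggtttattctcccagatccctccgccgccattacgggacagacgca
Fkbp5 promoter, chr17:28486150-28486399, minus strand: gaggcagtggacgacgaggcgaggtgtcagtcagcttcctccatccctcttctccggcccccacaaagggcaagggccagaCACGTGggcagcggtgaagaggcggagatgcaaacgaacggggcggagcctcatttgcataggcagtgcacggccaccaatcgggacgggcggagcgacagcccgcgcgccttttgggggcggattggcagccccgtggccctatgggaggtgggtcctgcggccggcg
Errfi1 promoter, chr4:150854820-150855069, plus strand: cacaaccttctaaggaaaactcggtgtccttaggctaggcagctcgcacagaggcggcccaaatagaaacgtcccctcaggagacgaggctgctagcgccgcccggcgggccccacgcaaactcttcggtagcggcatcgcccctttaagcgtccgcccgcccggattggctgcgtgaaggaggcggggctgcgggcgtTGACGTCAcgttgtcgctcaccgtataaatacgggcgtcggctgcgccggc
Dusp1 promoter, chr17:26508473-26508722, minus strand: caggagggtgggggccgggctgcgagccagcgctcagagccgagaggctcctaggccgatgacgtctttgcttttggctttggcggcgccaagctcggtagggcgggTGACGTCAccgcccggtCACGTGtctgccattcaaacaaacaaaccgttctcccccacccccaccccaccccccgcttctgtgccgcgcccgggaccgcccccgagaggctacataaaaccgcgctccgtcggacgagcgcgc
A match describes the letters of the window and not a bound site, and counts per gene do not tell which start site was used. Fkbp5 had neither palindrome nor half-site in its window. Bases beyond the 250 before each start, and letters other than these, were not searched. A link between these letters and the fold changes was not tested.

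On the per-length scale Dusp1 was the most abundant of the 10 genes in both groups, at an FPKM of 104 ± 45.7 in young and 68.9 ± 18.9 in aged aorta (SD, n = 3 each). In young aorta it was followed by Klf9 at 25.1, Errfi1 at 17.8, Nr3c1 at 16.0, Sgk1 at 11.4, Tsc22d3 at 5.43, Zbtb16 at 3.69, Hsd11b1 at 3.62, Fkbp5 at 1.29 and Nr3c2 at 1.12. In aged aorta the order after Dusp1 was Errfi1 at 50.4, Klf9 at 46.8, Tsc22d3 at 18.1, Sgk1 at 13.0, Nr3c1 at 11.3, Fkbp5 at 9.52, Zbtb16 at 9.46, Hsd11b1 at 8.36 and Nr3c2 at 2.51. Neighbours in these orders mostly overlapped in their libraries, for 7 of 9 pairs in each group. The exceptions were Dusp1 with Klf9 and Hsd11b1 with Fkbp5 in young aorta, and Klf9 with Tsc22d3 and Hsd11b1 with Nr3c2 in aged aorta.

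The 10 genes did not share 1 order of the libraries. Young replicate 1 was the lowest library for 5 of them (Hsd11b1, Fkbp5, Tsc22d3, Zbtb16 and Sgk1) and young replicate 2 for 4 (Nr3c2, Klf9, Dusp1 and Errfi1). Among all genes tested these libraries were the lowest for 12.7% and 15.9%. Aged replicate 2 was the highest for Fkbp5, Zbtb16, Klf9 and Errfi1 (17.7% of all genes tested), and aged replicate 3 for Nr3c2, Tsc22d3 and Sgk1 (15.1%). Fkbp5 and Tsc22d3 were picked for being higher in aged aorta, which favoured a young library as their lowest and an aged one as their highest. The shares of all genes are therefore no comparison for this pair. Aged replicate 2 is the library with the high brown adipocyte markers, where Ucp1 reached 1422 CPM against 45.2 to 361 elsewhere, and all 4 of those markers were detected in every library. Without it, the log2 fold changes were 2.54 for Fkbp5, 1.31 for Errfi1, 0.90 for Klf9 and -0.46 for Zbtb16. Young replicate 1 is the library in which the Per and Dbp arm of the clock was low against the Bmal1 arm, with a log2 difference of -1.53 where the other libraries had 2.14 to 4.78. Per1, which both the clock and the receptor drive, was at 21.5 CPM there and at 90.5 to 176 CPM in the other libraries (log2 fold change 0.74, adjusted p = 0.676 by edgeR, and 0.29 without that library). The part of the clock in these values was not tested.

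**Figure D4:**
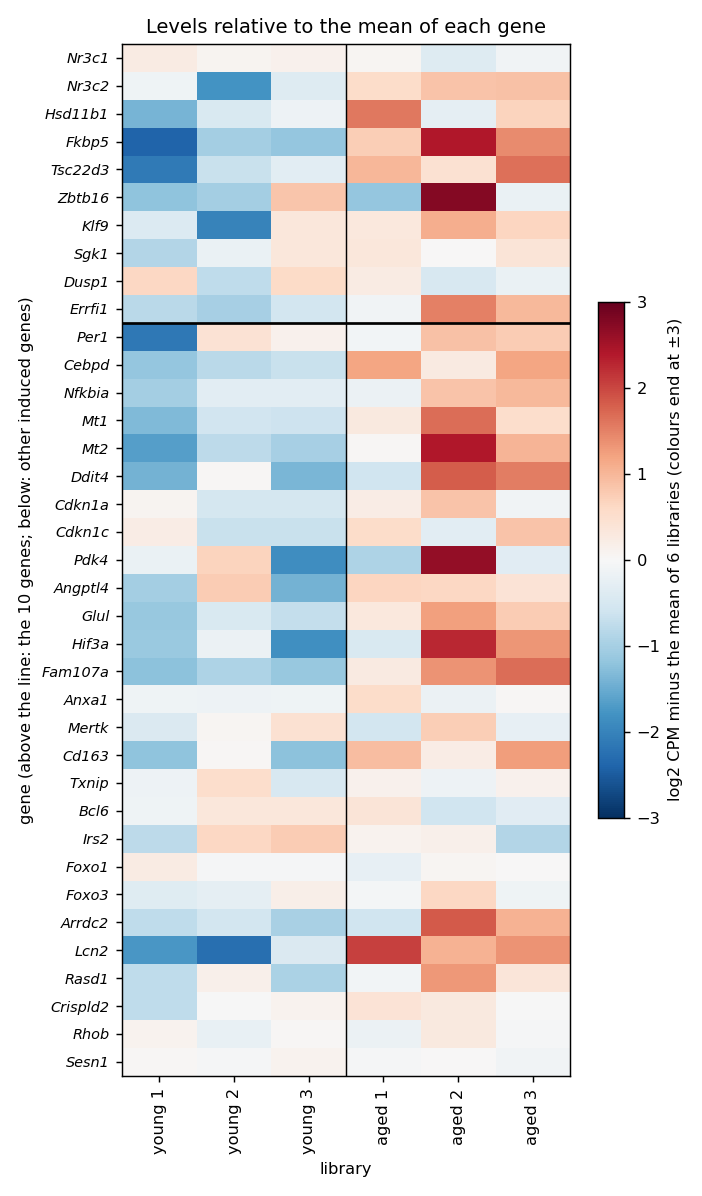
Log2 CPM of the 10 genes and of the other tested induced genes in each library, centred on each gene's mean over the 6 libraries, with red above and blue below that mean. Aged replicate 2 is the highest library for 13 of the 27 other induced genes (17.7% of all genes tested). Young replicate 1 is the lowest for 10 of the 27 (12.7% of all genes tested).

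A wider list of 27 genes that glucocorticoids are known to induce was read next. None passed the adjusted threshold by edgeR, 12 were higher at an unadjusted p below 0.05 and none lower, beside the 5.56% of all genes that were higher. The median log2 fold change was 0.80 and 23 of 27 values were above 0, where 52.1% of all genes were. In 8 of 27 genes every aged library exceeded every young one, as in 7.74% of all genes. Without young replicate 1 and aged replicate 2, 9 were higher and 2 lower at that level (9.41% of all genes were then higher) and the median was 0.50. DESeq2 called 10 of the 27, against 2.26% of all genes. Lcn2, included in the 12, the 8 and the 10, was at 0.35 CPM or less in young and 1.09 to 2.23 CPM in aged libraries. Its aged level carried it past the filter on low counts, so its inclusion depended on its direction.

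Cebpd, a transcription factor of the acute response, had the smallest p of this list with Fam107a, an actin-binding protein. Cebpd was at 14.0, 17.9 and 19.6 CPM in young replicates 1, 2 and 3 and at 70.9, 37.9 and 70.7 CPM in aged replicates 1, 2 and 3. Its groups were well apart, and the log2 fold change was 1.80 (standard error 0.28, adjusted p = 0.259 by edgeR). Fam107a was at 11.5, 14.1 and 12.1 CPM in young replicates 1, 2 and 3 and at 32.5, 68.4 and 86.5 CPM in aged replicates 1, 2 and 3. Its log2 fold change was 2.31 (standard error 0.35, adjusted p = 0.259 by edgeR). The metallothioneins Mt1 and Mt2, which bind zinc and copper, stood at 1.76 (standard error 0.41) and 2.58 (standard error 0.59), each with an adjusted p of 0.372 by edgeR and each highest in aged replicate 2. Without that library they were at 1.21 and 1.71. DESeq2 called all of these. Named after their values were seen, the other genes at an unadjusted p below 0.05 were Nfkbia, the inhibitor of NF-κB, Ddit4, an inhibitor of mTORC1, Glul, which makes glutamine, Cd163, a scavenger receptor of macrophages, and Hif3a, Arrdc2, Rasd1 and Lcn2. Cd163 was at 3.55 to 8.65 CPM in young and 9.91 to 20.1 CPM in aged libraries. The 6 macrophage markers summed to 85.6 to 112 CPM in young and 116 to 369 CPM in aged libraries, and the part of macrophages in the Cd163 values was not tested.

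Of 17 inflammatory genes that glucocorticoids are known to hold back, 10 had enough counts to be tested, 9 of those had log2 fold changes above 0 (52.1% of all genes), and 5 were higher at an unadjusted p below 0.05 (5.56% of all genes). With library totals unscaled 3 were higher at that level (2.6% of all genes). With limma on log2(FPKM + 1) 1 was (2.23% of all genes), with a median of 0.37 instead of 1.30. The other 7 were too low in count for the test, so the 10 do not speak for the list. Il1b, among the 9 and the 5, had 4, 2 and 11 counts in young replicates 1, 2 and 3. In aged replicates 1, 2 and 3 it had 14, 17 and 40. It passed the count filter through the aged libraries, so its place in these counts was not independent of its direction. Mmp3, a protease of the matrix, was at 24.1, 13.2 and 34.8 CPM in young replicates 1, 2 and 3 and at 313, 30.7 and 125 CPM in aged replicates 1, 2 and 3. Its groups overlapped, as aged replicate 2 lay inside the young range, and the log2 fold change was 2.70 (standard error 0.79, adjusted p = 0.382 by edgeR). Vcam1, an adhesion molecule for leukocytes, had non-overlapping groups at 35.6 to 41.5 CPM in young and 45.6 to 149 CPM in aged libraries (log2 fold change 1.26, standard error 0.39, adjusted p = 0.390 by edgeR). Both were highest where the fibroblast or endothelial markers were, Mmp3 in aged replicate 1 and Vcam1 in aged replicate 3, where 6 endothelial markers summed to 1574 CPM against 326 to 477 elsewhere. Their part was not tested.

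Of 15 chaperones and co-chaperones that hold the receptor ready for hormone, 2 were higher at an unadjusted p below 0.05 (5.56% of all genes), Hsp90aa1 with a log2 value of 0.47 (standard error 0.17, adjusted p = 0.429 by edgeR) and Dnaja1 at 0.52 (standard error 0.21, adjusted p = 0.455 by edgeR). Hsp90aa1 was at 180.1 to 202 CPM in young and 223 to 306 CPM in aged libraries without overlap. The most abundant, Hsp90ab1 and Hspa8, stood at 0.27 and 0.25. The list's median was 0.15 with 13 of 15 above 0 (52.1% of all genes), and this depends on scaling. With library totals unscaled the median was -0.09, with 7 of 15 above 0 and 0 of 15 at that level. The median of all genes then moved to -0.22. Of 15 coactivators and corepressors of the receptor, 13 had log2 fold changes below 0 (47.9% of all genes) with a median of -0.21, and 2 passed the unadjusted level (10.4% of all genes). With library totals unscaled, none was higher and 4 were lower at that level, where 2933 of 16612 genes passed it in either direction. The 2 genes under TMM were Nrip1, a corepressor, at 0.47 (standard error 0.16, adjusted p = 0.421 by edgeR) and Hdac6, a deacetylase of Hsp90, at -0.42 (standard error 0.17, adjusted p = 0.467 by edgeR). The most abundant coregulators, Carm1 and Hdac2, were at -0.23 and 0.05.

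Of the sodium transport genes, which include Sgk3, a relative of Sgk1, 8 were tested and none passed the unadjusted level. They had 4 values above and 4 below 0, with a median of -0.016. With library totals unscaled 1 was above and 7 below 0, and 1 was lower at that level (2933 of 16612 genes in either direction). With limma 1 was also lower (2941 or 2556 of 16612 genes), as without aged replicate 2 (2359 of 17147 genes). Nedd4l, a ubiquitin ligase that Sgk1 is known to restrain, was at -0.32 and its relative Nedd4 at -0.63. None of 9 paralogues of the 10 genes passed the unadjusted level either. Among them, Tsc22d1 stood at -0.17 and Fkbp1a at 0.11. Fkbp5 and Tsc22d3, at 3.11 and 1.98, were picked for being higher, so no contrast with their paralogues is drawn. In the 5 genes of the Bmal1 arm of the clock the median was -1.09, and it turned to 0.46 without young replicate 1. In the 9 genes of the Per and Dbp arm it was -0.039, and -0.46 without young replicate 1, with 9 of 9 then below 0 and 2 of them at an unadjusted p below 0.05. Of 17259 genes tested without that library, 1952 were at that level in either direction.

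**Figure D5:**
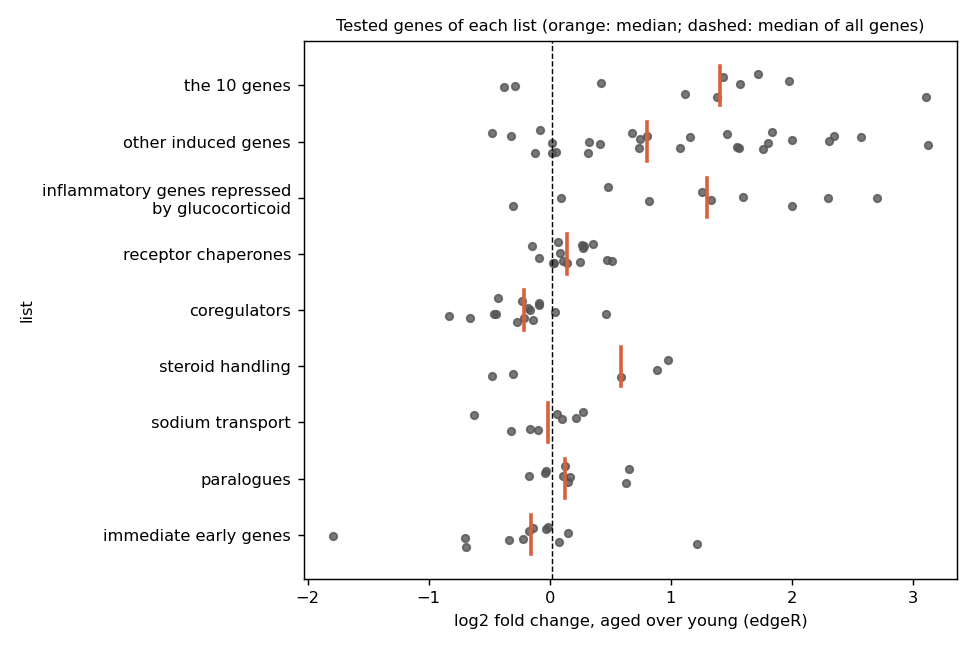
Log2 fold change of aged over young aorta for each tested gene of the pathway lists, 1 row of points per list, with an orange bar at the list's median and a dashed line at the median of all genes. Other induced genes have a median of 0.80 and inflammatory genes 1.30, while chaperones, coregulators, sodium transport genes and paralogues have medians between -0.21 and 0.15.

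The genes most like Fkbp5 and Tsc22d3 over the 6 libraries were read from log2 CPM among 14085 genes of at least 1 CPM on average, as a description. For Fkbp5 they were Glul (Pearson r = 0.996 across 6 libraries), Tpst2 (0.995), Ubl3 (0.992), Stc2 (0.988) and Tmem229b (0.987). Glul, which the list of induced genes also holds, was at 151, 242 and 200.5 CPM in young replicates 1, 2 and 3 and at 412, 784 and 561 CPM in aged replicates 1, 2 and 3, the same order of libraries as Fkbp5. Ubl3 moved in that order over a small range of 42.3 to 51.1 CPM, while Stc2, a secreted glycoprotein, ran from 6.13 to 38.2 CPM. For Tsc22d3 the most alike were Gmfb (r = 0.993), Ckap2l (0.992), Kif23 (0.991), Ackr2 (0.986) and Mdk (0.985). Kif23 and Ckap2l, which act in cell division, stayed at 2.94 CPM or less. No gene was among the 5 most alike of both Fkbp5 and Tsc22d3. The 6 libraries share the age contrast that picked this pair, which raises r for genes that differ between the groups.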

How the data were processed

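RNA of mouse aorta was extracted with a column kit and made into libraries with a SMARTER mRNA kit, 3 young and 3 aged. The authors deposited counts, whole numbers of reads per gene without normalization, and FPKM, which the authors scaled for gene length and library. The submitters' processing notes name mm10, while aligner, counting tool, annotation and use of strand are not given in the sources used here. FPKM were proportional to counts (SD 0.0031 on the log2 scale over 12172 genes).

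Counts were analysed in R 4.3.3 with edgeR 4.0.16, by filterByExpr (minimum count 10, total 15), TMM and quasi-likelihood tests, with Benjamini-Hochberg adjustment over all genes tested and a threshold of 0.05. Log2 CPM used a prior count of 2. Fkbp5 and Tsc22d3 received no p. The receptor ratio had an exact permutation test. Positions are those of GENCODE M21 on GRCm38 (55154 of 55335 identifiers matched), and promoters those of RefSeq GRCm38.p6. Scripts were tested on simulated data.

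The 10 genes and all lists were chosen with earlier results of these data known. In each list the 2 genes of highest mean FPKM and the 2 of smallest p are named where they make a point, plus the 5 genes most like Fkbp5 and Tsc22d3. Others were named after their values were seen. Alternatives were RLE factors, unscaled library totals, no mitochondrial genes, no filter or 10 counts in every library, robust fitting, DESeq2 1.42.0, limma 3.58.1 (on log2 of FPKM plus 1 or plus 0.1), the replicate number as a block, and libraries left out.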

Additional observations from a re-analysis of the deposited data

How the results depend on the processing

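The count of 0 genes past the threshold held with RLE factors, unscaled totals, no mitochondrial genes, either other filter, robust fitting and limma, at 1645 to 2941 genes of unadjusted p below 0.05. DESeq2 called 338 genes and 2 of the 8 genes besides Fkbp5 and Tsc22d3. With 1 library left out edgeR called 0 to 110 genes, 110 without aged replicate 2, and 0 of the 8 genes each time. Zbtb16 reversed to -0.46 without aged replicate 2 (range -0.46 to 2.55 with 1 library left out) and to -0.79 without aged replicate 2 and young replicate 1. No other of the 10 genes reversed. Fkbp5 was at 2.10 with limma on log2(FPKM + 1), a scale that lowers the fold of low genes. The wider list of induced genes, recounted under alternatives added after seeing the data, held 8 to 13 genes higher at an unadjusted p below 0.05 against 12. Among all genes the share that was higher ran from 2.23% (limma on log2(FPKM + 1)) to 9.41% (without young replicate 1 and aged replicate 2). In the list 8 were higher and 2 lower in the first setting, and 9 higher and 2 lower in the second. Single genes of the lists were also refitted without young replicate 1 and aged replicate 2 after seeing the data. The receptor ratio differed by -1.84 from raw counts also. Fitted with a replicate block, edgeR found 0 genes (1782 at an unadjusted p below 0.05) and 0 of the 8, and the ratio had an exact p of 0.25 over sign flips, the smallest possible for 3 pairs. Same-numbered libraries correlated at 0.0825, 0.117 and 0.098 in their deviations from group means. With no reference for a shared batch, these values cannot tell whether such libraries share more than a number. The number of mice, 3 per group, limits the precision. The cause of these changes was not tested.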
